A study of Oryza sativa with 16 samples.

Results

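Stress-associated proteins (SAPs) of rice carry an A20 zinc finger, an AN1 zinc finger or both, and the genes for 9 of them, SAP1, SAP3 to SAP9 and SAP11, were followed here. They were chosen by name, as symbol or synonym in the annotation of the rice array, and SAPK kinases were left out. SAP3 and SAP8 are names of the same annotated gene, written SAP8 below, so the 9 names stand for 8 genes. These genes were read by 12 probe sets among the 57194 probe sets of the array that are not controls. The array annotation gives a single gene for probe sets of 17905 genes in all. SAP7 (gene LOC4334394) had 3 probe sets, SAP5 (LOC4329544) and SAP9 (LOC4342503) had 2 each, and SAP1 (LOC4347423), SAP4 (LOC4328609), SAP6 (LOC4334392), SAP8 (LOC4341520) and SAP11 (LOC4345973) had 1 each.

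The A20 finger can bind ubiquitin, the small protein that marks others for removal or relocation, and plant SAPs have been linked to the ubiquitin system. Several rice SAP genes respond to salt, cold, drying or abscisic acid, the hormone of water shortage. Overproduction of SAP1 in tobacco, and of SAP8 in tobacco and rice, makes plants more tolerant of salt, drying and cold, whereas rice SAP7 overproduced in Arabidopsis weakens the response to abscisic acid. SAP11 binds a receptor-like cytoplasmic kinase. SAP6, SAP7 and a further family gene, SAP14, are direct neighbours on their chromosome, with 0 genes between SAP6 and SAP7 and 0 between SAP7 and SAP14.

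Transcripts were measured on 16 Affymetrix rice arrays, 2 for each of 8 groups, the stressed and the control plants of 4 varieties. The salt experiment compared salt-stressed with control seedlings of CSR11, a salt-tolerant variety, and of VSR156, a salt-sensitive variety. The drought experiment compared drought-stressed with control seedlings of Vandana, drought-tolerant, and of IR64, drought-sensitive. Per the labels, seedlings of 2 weeks from hydroponic culture were given 50 mM NaCl or taken out of the medium for 24 h, controls got neither, and leaf was sampled, whereas the methods give a stronger salt dose and a shorter drought, more than 1 seedling age, and leaf, shoot or whole plants as the material in different places. The arrays of a group are lettered A and B. The methods mention sowing in replicates and pooling in equal amounts before RNA extraction, but not whether the arrays of a group come from separate pools, so p-values measure only the spread between these arrays, which may be technical. The varieties of the 2 experiments differ, so variety and experiment cannot be told apart. In RNA of whole tissue, fewer cells of a type and less RNA per cell cannot be told apart either.

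Several arrays stood apart from the rest before any SAP gene was considered. The deposited intensities of the VSR156 salt arrays averaged 36.2 and 22.9, against 133 and 114 in their control, and those of CSR11 salt 94.8 and 9.16, against 46.6 and 92.2, whereas the 8 drought-experiment arrays lay between 99.8 and 230.5. The log2 ratio of 3' to 5' control probes for GAPDH, which grows as RNA breaks, was 7.68 and 8.16 in VSR156 salt, against 4.88 and 4.61 in the control of that variety. It was 3.32 and 6.35 in CSR11 salt, against 3.05 and 2.05, and at most 1.34 in the drought experiment. Of 206 probe sets with a gap of at least 3 log2 units between the controls of Vandana and IR64, the arrays labelled Vandana drought were nearer to the IR64 control in 183 and 179, and the arrays labelled IR64 drought in 127 and 122. The tissue label was also checked: the 7 leaf markers averaged between 1443 and 2544 on every array, but 5 root markers averaged 614 and 619 in VSR156 salt, against 128 and 131 in its control, and 438 and 487 in CSR11 salt, against 1313 and 1238. On the 8 drought-experiment arrays these 5 markers averaged between 199 and 646. Single markers differed: LSI2, a silicon exporter of root cells, was at or below a mean of 1.72 in the 4 groups of the drought experiment, but at 334 in VSR156 salt, against 16 in its control, and at 250.3 in CSR11 salt, against 379.8. NAAT1, another of the 5, was at 2859 in the IR64 control, above all 4 groups of the salt experiment.

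All values below are intensities after quantile normalization over the 16 arrays, on which the median probe set of an array had 8.0, and differences are of log2(intensity + 16), a scale that shrinks the change of dim probe sets. Up or down regulated (called) means a difference of at least 1 log2 unit together with an adjusted p under 0.05, by the Benjamini-Hochberg method over all 57194 probe sets, from a limma model of the 8 groups. Where a gene has more than 1 probe set, the brightest stands for it.

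The 8 genes spanned bright and dim probe sets. By mean intensity, the probe set of SAP8 lay at percentile 99.8 of all probe sets, those of SAP4, SAP6 and SAP9 at 97.9, 96.0 and 95.4, that of SAP1 at 89.3 and that of SAP5 at 74.4, whereas SAP11 and SAP7 were dim, at 65.0 and 61.9. Over the 8 group means, the range was 1.93 log2 units for SAP1, 1.89 for SAP7, 1.42 for SAP5, 1.26 for SAP9, 1.03 for SAP11, 0.98 for SAP6, 0.94 for SAP4 and 0.54 for SAP8. The median range was 0.75 over all probe sets and 1.71 over the 16046 probe sets with a mean of at least 50. SAP8, the brightest, thus varied less than most bright probe sets, as did SAP4, SAP5, SAP6 and SAP9, whereas SAP1 varied more. Bright probe sets were also called more often: among those 16046, the share up or down regulated was 16.1% in CSR11 salt, 18.7% in VSR156 salt, 32.0% in Vandana drought and 19.5% in IR64 drought.

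**Figure D1:**
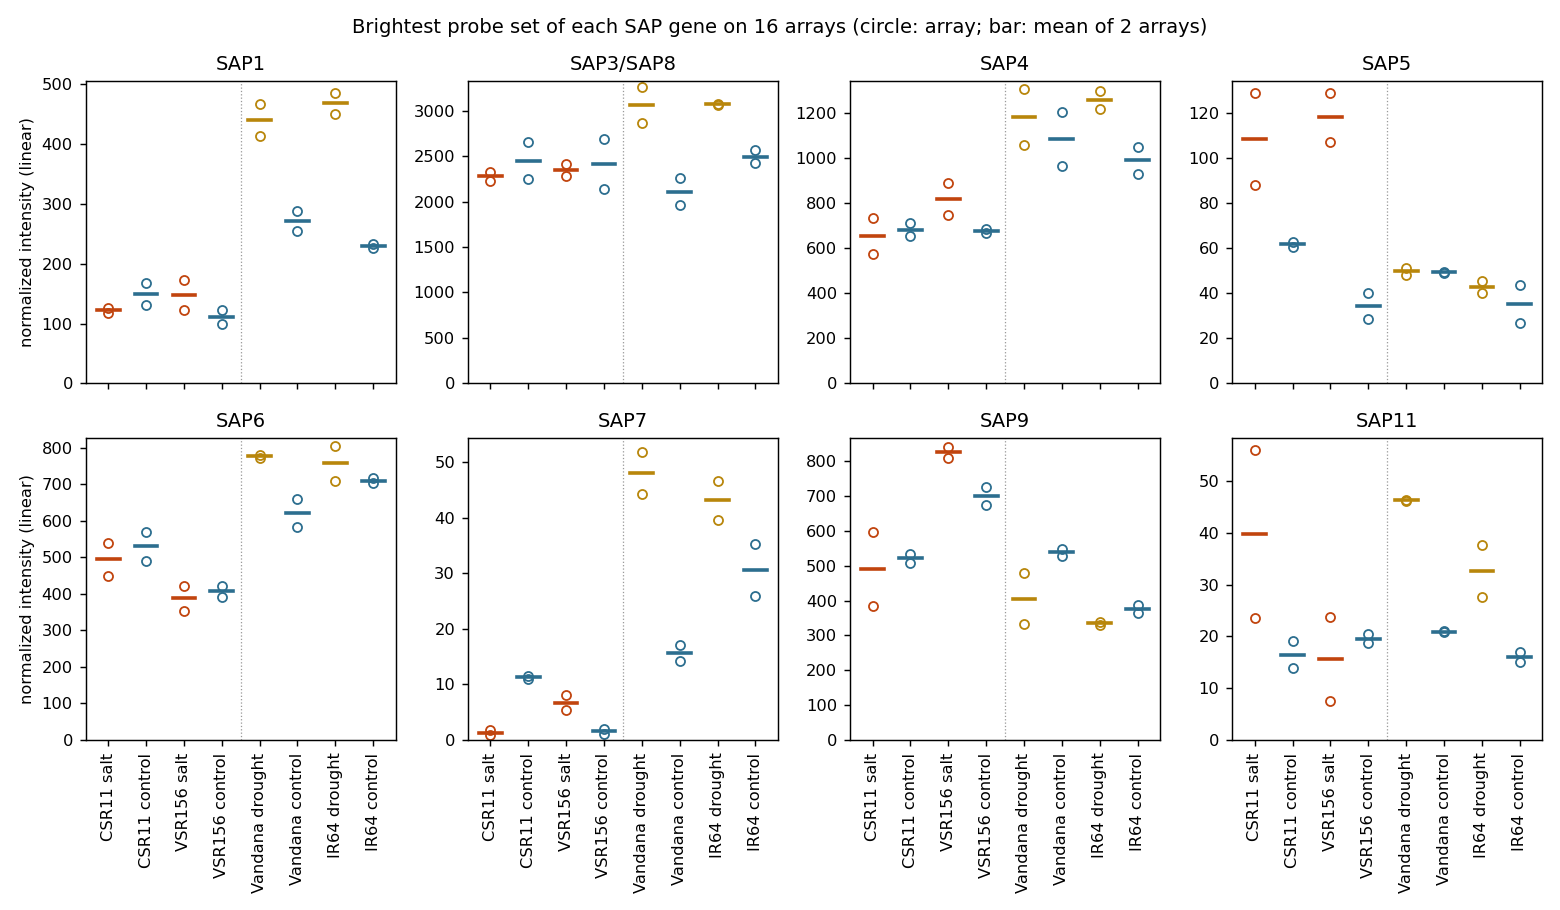
Normalized intensity (linear axis from 0) of the brightest probe set of each SAP gene in the 8 groups, stress left of control for each variety, with salt left and drought right of the dotted line; circles are arrays and bars the mean of 2 arrays. SAP1 and SAP7 were higher on all 8 drought-experiment arrays than on all 8 salt-experiment arrays, and SAP5 was highest in the salt groups.

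On the quantile scale SAP5 was the 1 gene of 8 that was up regulated in VSR156 salt, and none was in CSR11 salt. In VSR156 2 of the 12 SAP probe sets were called, both of SAP5 and both up, where 7.75% of all probe sets were called and 3.33% were up. In CSR11 0 of 12 were called, where the share over all probe sets was 6.33%. The methods' t-test at an unadjusted p called 1 SAP probe set in VSR156 and 0 in CSR11, where it called 2645 and 837 of all 57194 probe sets. The median difference over the 8 genes was 0.25 in VSR156 and -0.10 in CSR11, against 0.019 and 0.016 over all probe sets. With centred arrays the medians of the 8 genes were -1.07 in VSR156 and -0.90 in CSR11, and as deposited -1.62 and -1.05, so that the VSR156 median turned with the scaling. On centred arrays 1 of the 8 genes was above 0 in each variety, SAP7 in VSR156 and SAP11 in CSR11. The median over all probe sets was then 0.021 in VSR156 and -0.011 in CSR11. Calls over all probe sets were nearly all down on that scale, with 9664 down and 111 up in VSR156, and 386 and 4 in CSR11. The lower SAP medians there are therefore not shown to be particular to these genes.

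The brighter probe set of SAP5 had 129 and 107 in VSR156 salt, against 28.8 and 40.1 in the VSR156 control. Both salt arrays lay above both control arrays, and the difference was 1.42 log2 units, 2.67-fold on the log2(intensity + 16) scale (standard error 0.19, 95% interval 0.99 to 1.84, adjusted p = 0.000425 from limma). Its dimmer probe set, whose name has the suffix that marks probes that can also match other transcripts, had 76.4 and 56.6 in VSR156 salt, against 21.0 and 18.9 in the control. Here too the arrays did not overlap, at 1.19 (standard error 0.28, 95% interval 0.57 to 1.81, adjusted p = 0.0127). This second call was lost without salt array A (1.03, adjusted p = 0.0773) and without control array A (1.22, adjusted p = 0.0591) or B (1.14, adjusted p = 0.0814) of VSR156.

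The direction of SAP5 in VSR156 depended on how the arrays were scaled. As deposited, the brighter probe set read 36.7 and 18.3 in VSR156 salt, against 50.7 and 59.1 in the control, a difference of -0.74 where the median of all probe sets was -0.53, and after subtracting each array's median log2 value the difference was -0.19. Relative to the median of all probe sets, the deposited difference of SAP5 was -0.21, whereas those of SAP4, SAP6 and SAP9 were -1.35, -1.82 and -1.37. On the quantile scale the differences of these 3 genes were 0.27, -0.07 and 0.23. The salt arrays of VSR156 are the ones with the highest GAPDH ratios, and their root markers were above those of the control. The part of either in the SAP5 result was not tested.

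**Figure D2:**
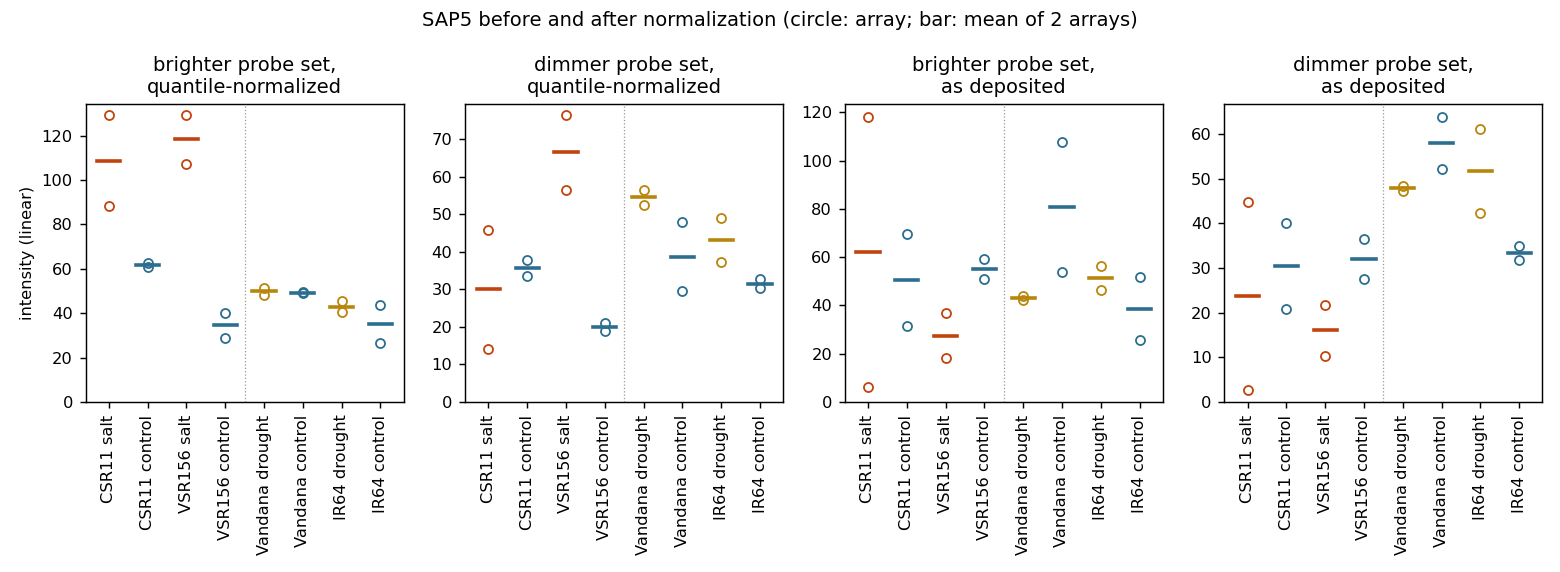
Intensity (linear axes from 0) of the brighter and the dimmer probe set of SAP5 in the 8 groups, after quantile normalization in the left pair of panels and as deposited in the right pair; circles are arrays and bars the mean of 2 arrays. The VSR156 salt arrays lay above their control after normalization, for example 129 and 107 against 28.8 and 40.1, and below it as deposited, 36.7 and 18.3 against 50.7 and 59.1.

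In CSR11 the brighter SAP5 probe set had 129 and 88.2 under salt, against 60.8 and 62.7 in the control. Both salt arrays were again higher, by 0.66 log2 units (standard error 0.19, 95% interval 0.24 to 1.09, adjusted p = 0.0389), which fell short of 1 log2 unit and was not called. As deposited the difference was -0.22, and with centred arrays -0.07. The other SAP5 probe set did not follow. It had 46.0 and 14.1 in CSR11 salt, against 37.9 and 33.5 in the control, and its arrays overlapped (-0.26, 95% interval -0.88 to 0.36, adjusted p = 0.626). Over the 16 arrays, which share their normalization, the 2 SAP5 probe sets correlated at r = 0.42.

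SAP7 was dim in the whole salt experiment. It had 0.912 and 1.72 in CSR11 salt, against 11.6 and 11.0 in the CSR11 control, and both salt arrays were below both controls, by 0.66 log2 units (standard error 0.13, 95% interval -0.94 to -0.37 for salt minus control, adjusted p = 0.00539), short of the fold. With 1 in place of 16 added before the logarithm the difference was -2.43 (adjusted p = 0.00245) and was called. In VSR156 the direction was opposite, with 8.02 and 5.37 under salt, against 2.03 and 1.14 in the control (0.37, 95% interval 0.08 to 0.65, adjusted p = 0.0777, not called). With 1 added this difference was 1.57 (adjusted p = 0.00867) and was called too, whereas as deposited it was 0.02. All these values were near or below 8.0, the median of an array, and no detection calls were at hand to say which of them stood above background.

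The other probe sets of SAP7 did not track the brightest. The second had 19.9 and 27.7 in VSR156 salt, against 1.56 and 8.19 in the control, so that the arrays did not overlap (0.94, standard error 0.24, adjusted p = 0.0199, short of the fold). In CSR11 it had 1.09 and 8.37 under salt, against 3.95 and 6.73. The third stayed at or below 3.74 on all 16 arrays. The correlations of the 3 probe sets over the 16 arrays were between -0.22 and 0.077.

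**Figure D3:**
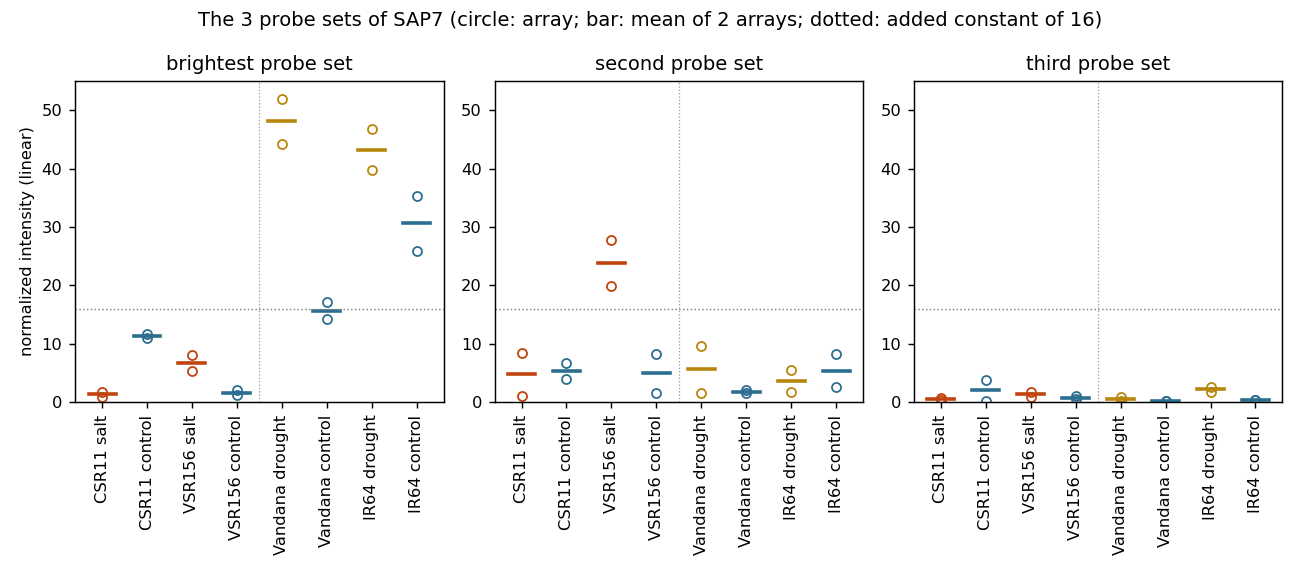
Normalized intensity (linear axis from 0) of the 3 probe sets of SAP7 in the 8 groups; circles are arrays, bars the mean of 2 arrays, and the dotted horizontal line marks the constant of 16 that was added before the logarithm. The brightest reached 51.9 and 44.3 in Vandana drought, while the other 2 lay below the line on all arrays other than those of VSR156 salt.

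None of the remaining genes was called under salt in either variety. SAP11 had 23.6 and 56.0 in CSR11 salt, against 19.1 and 13.8 in the control. Its salt arrays lay higher but were far apart from each other (0.72, standard error 0.27, 95% interval 0.12 to 1.33, adjusted p = 0.106), and without salt array A the difference was 1.16 (adjusted p = 0.00516) and was called. As deposited it was -0.06. In VSR156 SAP11 had 23.7 and 7.45 under salt, against 18.7 and 20.4, and the arrays overlapped (-0.22, 95% interval -0.82 to 0.38).

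SAP1 had 126 and 118 in CSR11 salt, against 168 and 131 in the control (-0.25, 95% interval -0.62 to 0.11). It had 123 and 173 in VSR156 salt, against 99.5 and 123 in the control (0.36, 95% interval -0.01 to 0.72). The order of the groups was thus opposite in the 2 varieties, with intervals that reached across 0 in both.

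SAP4 had 733 and 574 in CSR11 salt, against 709.9 and 652 in the control, and 891 and 749 in VSR156 salt, against 686 and 666. SAP9 had 598 and 385 in CSR11 salt, against 509 and 534, and 842 and 809 in VSR156 salt, against 725 and 676. For both genes the arrays overlapped in CSR11 and lay above the control in VSR156, where the intervals were -0.09 to 0.63 for SAP4 and -0.19 to 0.66 for SAP9. The second SAP9 probe set was dim, between 20.7 and 39.1 on all 16 arrays, and correlated at r = -0.13 with the brighter one.

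SAP6 had 449 and 539.8 in CSR11 salt, against 491 and 571, and 422 and 353 in VSR156 salt, against 423 and 391. SAP8 had 2231 and 2324 in CSR11 salt, against 2653 and 2248, and 2409 and 2281 in VSR156 salt, against 2693 and 2138. Both overlapped with their controls in both varieties, and all 4 intervals lay between -0.41 and 0.27 log2 units.

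Non-overlap of 2 salt with 2 control arrays was itself common, at 45.4% of all probe sets in CSR11 and 56.3% in VSR156. Of the 12 SAP probe sets, 4 did not overlap in CSR11 and 7 in VSR156.

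The salt response differed between CSR11 and VSR156 for 2 of the 12 SAP probe sets by an interaction test, for which an adjusted p under 0.05 alone counted and no fold was required, and where 9.04% of all probe sets passed it. The difference of the responses, CSR11 minus VSR156, was -1.02 for SAP7 (standard error 0.18, 95% interval -1.42 to -0.62, adjusted p = 0.00562 from limma), with salt arrays below the control in CSR11 and above it in VSR156. With centred arrays it was -1.09 (adjusted p = 0.146) and as deposited -0.68 (adjusted p = 0.41). For the dimmer SAP5 probe set it was -1.45 (standard error 0.40, adjusted p = 0.0455), and for the brighter one -0.75 (95% interval -1.35 to -0.16, adjusted p = 0.124), which did not pass. The call of the dimmer SAP5 probe set was lost without any of 15 of the 16 arrays left out singly, at differences between -1.65 and -0.95 and an adjusted p between 0.0513 and 0.133, and held without CSR11 salt array A (-1.98, adjusted p = 0.000646). SAP11 was at 0.94 (95% interval 0.09 to 1.8, adjusted p = 0.18) and SAP1 at -0.61 (95% interval -1.13 to -0.09, adjusted p = 0.153).

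Drought arrays lay above the controls for several SAP genes, but 1 gene alone passed both thresholds. Of the 12 probe sets, 1 was up regulated in Vandana, the brightest of SAP7, and 0 were down, where 11.8% of all probe sets were called and 5.25% were up. In IR64 0 of 12 were called, where 6.96% of all probe sets were called. The median difference over the 8 genes was 0.43 in Vandana and 0.32 in IR64, against 0.0094 and 0.0020 over all probe sets. These medians depended on the scaling in Vandana, at 0.07 with centred arrays and -0.18 as deposited, and were 0.35 and 0.44 in IR64. The 7 leaf markers averaged 1443 on both Vandana drought arrays, against 2544 and 2534 in the control, and 1531 and 1524 in IR64 drought, against 2418 and 2385. The 5 root markers averaged 199 and 202 in Vandana drought, against 234 and 237, and 225 and 217 in IR64 drought, against 646 and 602. The part of these shifts in the SAP differences was not tested.

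SAP7 had 51.9 and 44.3 in Vandana drought, against 17.1 and 14.2 in the Vandana control. The drought arrays were higher by 1.02 log2 units, 2.02-fold on the log2(intensity + 16) scale (standard error 0.13, 95% interval 0.73 to 1.30, adjusted p = 0.000115 from limma). It had 46.7 and 39.7 in IR64 drought, against 25.9 and 35.3 in the IR64 control, again without overlap (0.35, 95% interval 0.07 to 0.63, adjusted p = 0.109, not called). The call in Vandana lay at the fold threshold. It was lost on the fold without Vandana control array B (0.92), Vandana drought array A (0.93) or VSR156 control array A (0.9992), with adjusted p of at most 0.00215 in each case. It was also lost with centred arrays (0.80, adjusted p = 0.0222) and as deposited (0.55, adjusted p = 0.147).

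Because the arrays labelled Vandana drought resembled the IR64 control, each drought group was also compared with the other drought variety's control, an alternative chosen with that resemblance known. On this basis 0 of 12 SAP probe sets were called in Vandana and 0 in IR64, where 6.28% and 10.4% of all probe sets were. The difference of SAP7 was then 0.46 for Vandana drought (adjusted p = 0.0345) and 0.90 for IR64 drought (adjusted p = 0.000328). Which of the 2 varieties showed the larger SAP7 difference therefore turned with the control used, whereas the drought arrays lay higher in all 4 settings. This holds for the brightest SAP7 probe set. The second overlapped with its own control in both varieties, at 0.26 in Vandana and -0.13 in IR64 (adjusted p = 0.61 and 0.904 from limma). The third lay above its own control by 0.03 and 0.15, on values of at most 2.51.

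SAP1 had 451 and 486 in IR64 drought, against 227 and 233 in the IR64 control, the widest gap of this gene. The difference was 0.98 log2 units, 1.97-fold (standard error 0.17, 95% interval 0.61 to 1.34, adjusted p = 0.00188), just under the threshold of 1, and it was 1.03 without IR64 drought array A (adjusted p = 0.0126). SAP1 had 414 and 467 in Vandana drought, against 288 and 254 in the Vandana control, also without overlap (0.67, standard error 0.17, 95% interval 0.30 to 1.04, adjusted p = 0.0129). With the controls of the 2 varieties exchanged, the differences were 0.76 for IR64 drought (adjusted p = 0.00681) and 0.89 for Vandana drought (adjusted p = 0.00378). After quantile normalization all 4 drought arrays thus lay above all 4 controls of the drought experiment. As deposited the Vandana difference was 0.24 (adjusted p = 0.91), with 481 and 501 on the drought arrays, against 299 and 569.7 on the control arrays, which overlapped, while that of IR64 was 1.36 (adjusted p = 0.492).

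SAP11 had 46.2 and 46.4 in Vandana drought, against 21.0 and 20.8 in the control. Replicates were close and groups far apart, but the pooled spread of this probe set was wide (0.76, standard error 0.27, 95% interval 0.15 to 1.36, adjusted p = 0.079). In IR64 SAP11 had 27.6 and 37.8 under drought, against 15 and 17.1 (0.60, 95% interval -0.01 to 1.2, adjusted p = 0.221). Its 4 drought arrays, like those of SAP1, lay above all 4 controls on this scale. As deposited the Vandana difference was 0.21, with 42.2 and 37.8 on the drought arrays, against 23.2 and 43.7 on the control arrays, which overlapped, and that of IR64 was 0.73.

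SAP8 had 2862 and 3262 in Vandana drought, against 2259.6 and 1959.7 in the control (0.53, standard error 0.14, 95% interval 0.23 to 0.84, adjusted p = 0.016), which passed the adjusted p and not the fold. It had 3065 and 3078 in IR64 drought, against 2419 and 2568 in the control (0.30, 95% interval -0.01 to 0.60, adjusted p = 0.225). The drought arrays were higher in both varieties after quantile normalization, whereas on the deposited scale the difference was -0.20 in Vandana and 0.26 in IR64.

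By its brighter probe set, SAP9 was the gene with lower drought arrays on the quantile scale. It had 332 and 479 in Vandana drought, against 549 and 527 in the control, and 331 and 339.8 in IR64 drought, against 363 and 387. The arrays did not overlap in either variety, but the differences of -0.42 (95% interval -0.84 to 0.01) and -0.15 (95% interval -0.58 to 0.27) did not pass, and as deposited they were -0.90 and 0.18. Compared with the other drought variety's control, SAP9 was at 0.09 for Vandana drought and at -0.66 for IR64 drought (adjusted p = 0.0348). The dim second probe set of SAP9 lay above its own control in Vandana drought (0.21, adjusted p = 0.594 from limma) and overlapped with it in IR64 (-0.13).

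SAP6 had 773 and 781 in Vandana drought, against 582 and 661 in the control (0.32, 95% interval 0.02 to 0.62, adjusted p = 0.144). In IR64 it had 709 and 806 under drought, against 703 and 718, with overlap (0.09, 95% interval -0.21 to 0.39). SAP4 had 1306 and 1059 in Vandana drought, against 1205 and 965, with overlap, and 1297 and 1217 in IR64 drought, against 1052 and 930.5 (0.34, 95% interval -0.02 to 0.70, adjusted p = 0.248).

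The brighter SAP5 probe set was not called under drought. It had 48.1 and 51.5 in Vandana drought, against 49.6 and 48.9 in the control, and the interval of the difference was -0.41 to 0.43, whereas as deposited the difference was -0.65. In IR64 it had 40.3 and 45.6 under drought, against 26.7 and 43.6, with an interval of -0.20 to 0.65. The dimmer SAP5 probe set was at 0.39 in Vandana and 0.31 in IR64, with adjusted p of 0.456 and 0.645.

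**Figure D4:**
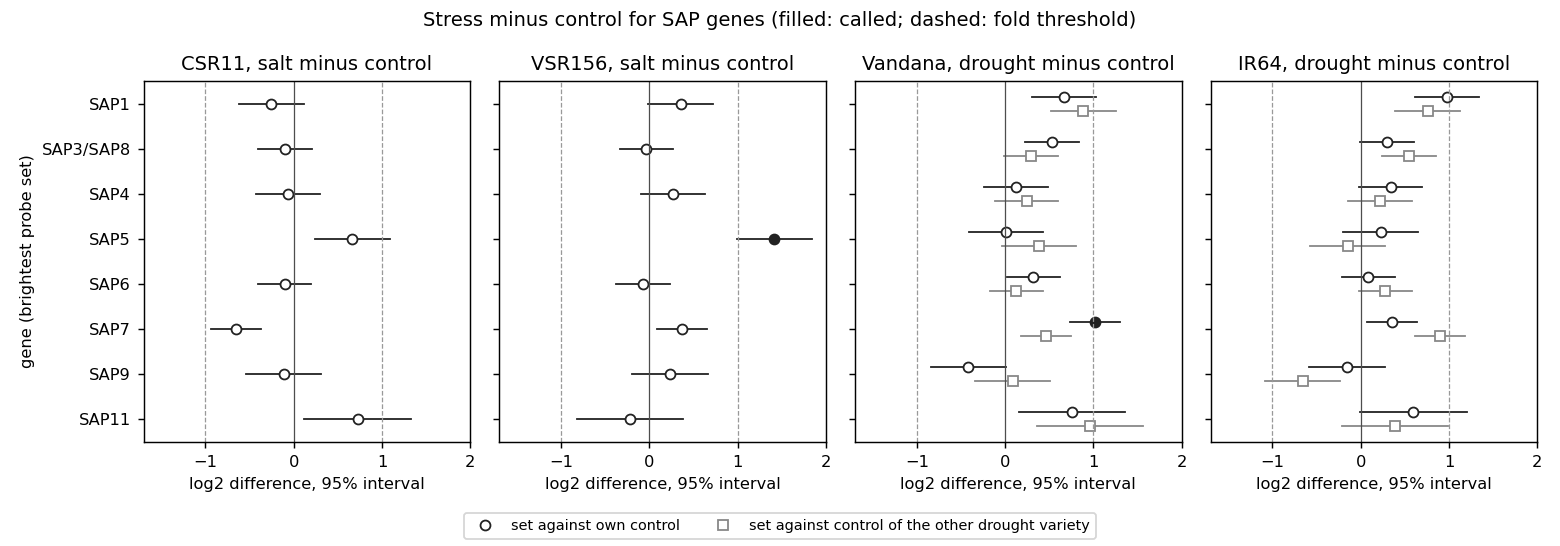
Stress minus control of the brightest probe set of each SAP gene (x axis, log2 units, with 95% intervals from limma) in the 4 varieties; filled points were called, dashed lines mark 1 log2 unit, and grey squares take the control from the other drought variety. SAP5 was called in VSR156, at 1.42, and SAP7 in Vandana, at 1.02, while its grey square lay at 0.46.

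Of the 12 SAP probe sets, 9 did not overlap between drought and control arrays in Vandana and 8 in IR64, where 58.6% and 58% of all probe sets did not. By an interaction test the drought response differed between Vandana and IR64 for 0 of 12, where 7.41% of all probe sets passed. SAP7 came closest, at 0.67 for Vandana minus IR64 (standard error 0.18, 95% interval 0.27 to 1.07, adjusted p = 0.05 after rounding), and reached an adjusted p under 0.05 when 64 was added in place of 16 (0.31, adjusted p = 0.0331). With the 2 drought labels exchanged, a setting added after seeing the data, the count was also 0.

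Between the unstressed plants, 0 of 12 SAP probe sets were called for CSR11 against VSR156 and 0 for Vandana against IR64, where 4.94% and 4.75% of all probe sets were. SAP7 passed the adjusted p in both, with 11.6 and 11.0 in the CSR11 control, against 2.03 and 1.14 in the VSR156 control (0.64, adjusted p = 0.00785), and 17.1 and 14.2 in the Vandana control, against 25.9 and 35.3 in the IR64 control (-0.55, adjusted p = 0.0173). It was thus higher in the tolerant variety of the salt pair and lower in the tolerant variety of the drought pair. SAP5 was at 0.63 for CSR11 against VSR156 (adjusted p = 0.0614) and SAP9 at 0.50 for Vandana against IR64 (adjusted p = 0.164).

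The 2 experiments stood apart for 4 genes, described here with no test, since varieties, treatments and RNA quality differed with the experiment. SAP1 lay between 227 and 486 on the 8 drought-experiment arrays, against 99.5 to 173 on the 8 salt-experiment arrays. SAP4 lay between 930.5 and 1306, against 574 to 891. SAP6 lay between 582 and 806, against 353 to 571, and SAP7 between 14.2 and 51.9, against 0.912 to 11.6. The controls took part in this gap, so that it was not confined to stressed plants. How many of all probe sets stood apart in this way was not counted. The gap is therefore not shown to be particular to SAP genes.

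The order of the groups showed which genes were high where. SAP1 was highest in IR64 drought and Vandana drought, which overlapped, then in the Vandana control and the IR64 control, each apart from the next, whereas the 4 salt-experiment groups overlapped with their neighbours among themselves. SAP7 ran from Vandana drought and IR64 drought, which overlapped, through the IR64 control, the Vandana control, the CSR11 control and VSR156 salt, each apart from the next, to the VSR156 control and CSR11 salt, which overlapped. SAP5 was highest in VSR156 salt and CSR11 salt, which overlapped, and lowest in the IR64 control and the VSR156 control, which also overlapped. SAP9 was highest in VSR156 salt and its control and lowest in IR64 drought.

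Across the 8 group means, which share arrays and normalization, SAP1 moved most like SAP4 (r = 0.96) and SAP7 (r = 0.95), and SAP6 like SAP7 (r = 0.92). SAP9 ran against SAP6 (r = -0.92) and SAP7 (r = -0.77). SAP5 correlated at between -0.52 and 0.45 with the other 7 genes. The gap between the 2 experiments is part of these values.

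Among 720 probe sets of named genes outside the family, each with a mean log2 value of at least 7, the genes most like SAP1 over the 8 group means were PHR1, a regulator of the phosphate starvation response (r = 0.98), the heat shock factor gene Hsf-24 (r = 0.97) and the small heat shock protein gene Hsp24.1 (r = 0.97). Those most like SAP7 were the heat shock factor gene Hsf-04 (r = 0.99), UGE-1, a UDP-glucose epimerase (r = 0.99), and RSH2, a RelA/SpoT homolog (r = 0.98). For SAP5 they were the metallothionein gene MT-2 (r = 0.97), PMM, a phosphomannomutase (r = 0.91), and MAGO1, of the exon junction complex (r = 0.91). With 8 points and 720 candidates, values this high describe the pattern and carry no test.

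Of 5 further A20/AN1 genes named on the array, SAP2 and SAP14 to SAP17, 1 was up regulated in VSR156, 1 in Vandana and none in CSR11 or IR64, and none was down by its brightest probe set, where 7.75%, 11.8%, 6.33% and 6.96% of all probe sets were called in these 4 comparisons. That gene was SAP2 in both cases. It had 158 and 103 in VSR156 salt, against 52.2 and 52.6 in the control (1.07, standard error 0.32, adjusted p = 0.0418), and 229.5 and 196 in Vandana drought, against 104 and 86.6 (1.04, adjusted p = 0.0404). The values were 0.24 in CSR11 and 0.59 in IR64 (adjusted p = 0.341). SAP14, next to SAP7 on the chromosome, lay between -0.01 and 0.16 in the 4 comparisons. A second probe set of SAP16 was down in CSR11, at -1.23 (adjusted p = 0.00936), where the brighter one was at 0.03.

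Of 16 genes for ubiquitin and its conjugation, to which SAPs have been linked, none was called in CSR11, 1 was up and 1 down in VSR156, 3 were down in Vandana and 1 was down in IR64, where 6.33%, 7.75%, 11.8% and 6.96% of all probe sets were called. The median over the 16 was 0.30 in CSR11, 0.27 in VSR156, 0.02 in Vandana and 0.06 in IR64. UBQ2, a ubiquitin gene, was the one called in 2 comparisons. It had 254 and 203 in Vandana drought, against 670.2 and 560.1 in the control (-1.37, standard error 0.13, adjusted p = 9.52e-06), and 243 and 220.5 in IR64 drought, against 501 and 507 (-1.07, adjusted p = 0.000133). The 16 genes ranged from -2.71 to 0.66 in Vandana and from -1.07 to 0.50 in IR64, so that UBQ2 does not stand for the list.

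Known dehydration genes show what the same arrays gave for strong responders. Of 8 such genes, 2 were up in CSR11, 8 in VSR156, 7 in Vandana and 7 in IR64, and none was down, where 6.33%, 7.75%, 11.8% and 6.96% of all probe sets were called. Their median difference was 0.95 in CSR11, 3.11 in VSR156, 3.91 in Vandana and 1.29 in IR64. The dehydrin genes RAB16C and RAB16D were the ones up in all 4 comparisons, RAB16C by between 1.55 and 5.43 log2 units and RAB16D by between 3.41 and 6.36. RAB16D had 1056 and 1057 in CSR11 salt, against 68.4 and 99.8 in the control, and 3327 and 3893 in Vandana drought, against 30.6 and 25.8. The genes of this list with the smallest differences, at -0.38 in CSR11, 1.06 in VSR156, 0.47 in Vandana and 0.78 in IR64, lay within the range of the SAP genes, below SAP5 at 1.42 in VSR156 and SAP1 at 0.98 in IR64.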

How the data were processed

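The authors deposited 1 table of processed intensities, with 57381 probe sets on 16 arrays. Per the submitters' processing notes it came from GCOS 1.0, whereas the methods also name RMA and removal of absent probe sets. The deposited values are linear intensities without calls that differ in level between arrays, and were treated as not yet normalized. After removal of 187 control probe sets, 57194 were quantile-normalized over all arrays and used as log2(intensity + 16). Gene names came from the platform annotation, in which 22436 probe sets name 1 gene and 95 several, updated through a table of rice genes used for names and gene order alone.

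Groups were compared in R 4.3.3 with limma 3.58.1, using 1 mean for each of 8 groups (8 residual and 2.94 prior degrees of freedom), and p-values were adjusted over all probe sets. Scripts were tested on simulated shifts, and plots used matplotlib 3.10.9 and pandas 2.3.3 under Python 3.11.15. Within varieties, same-lettered arrays deviated together with r between -0.027 and 0.012, so that the letters were not treated as pairs. The number of arrays, 2 per group, limits the precision.

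Every SAP probe set was accounted for, with values for the brightest of each gene. Other genes were named from fixed lists where called in at least 2 stress comparisons, at most 4 per list and of the dehydration genes those called in all 4, or as the 3 most alike by correlation for the 3 SAP genes of widest range. LSI2, NAAT1, SAP14 and SAP16 fell outside this rule and were named after their values were seen. The members, lists and tests were chosen with earlier results of these data known. Promoter and protein sequences were not used here. Alternatives covered the scaling, the added constant, a filter on dim probe sets, the arrays and groups in the fit, the prior, a replicate block, the methods' t-test, single arrays left out and the control of the other drought variety.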

Additional observations from a re-analysis of the deposited data

Results flagged for a closer look

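The salt response differed between CSR11 and VSR156 by the interaction test for 2 SAP probe sets. That of SAP7 was at -1.02 log2 units, CSR11 minus VSR156 (adjusted p = 0.00562 from limma), on values of at most 11.6 in any of the 8 salt-experiment arrays, close to the median of an array. That of the dimmer SAP5 probe set was at -1.45 (adjusted p = 0.0455). The brighter SAP5 probe set was at -0.75 (adjusted p = 0.124). The array with the lowest deposited mean, CSR11 salt B, held 1 of the 2 values behind each CSR11 salt mean. Without it the SAP7 difference was -1.10 (adjusted p = 0.00812) and that of the dimmer SAP5 probe set -0.95 (adjusted p = 0.0591). GAPDH ratios and root markers also differed between salt and control arrays in both varieties, and their part in these results was not tested.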

How the results depend on the processing

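The counts of called SAP probe sets moved with the processing. In VSR156 salt, 2 in the main setting, the count was 0 with arrays centred on their median, with 64 added or by the methods' t-test after Benjamini-Hochberg adjustment, 1 with the 8 salt arrays normalized apart, with a mean of at least 50 required or by the unadjusted t-test, and 2 on deposited values, where these were SAP11, at -1.15, and the dim SAP9 probe set, at -1.36, and 3 with 1 added, where SAP7 was also up, at 1.57. SAP5 reversed there to -0.74 as deposited and -0.19 with centred arrays, its dimmer probe set to -0.60 and -0.052, and the unequal response of this dimmer probe set to 0.17 as deposited. In Vandana drought the count of 1 was 0 as deposited, centred, with 64 added, with a mean of at least 50, by the adjusted t-test and against the other control. For the unequal salt response, counted by adjusted p alone, the count of 2 was 0 as deposited, centred or with a mean of at least 50, and 1 with the 8 arrays normalized apart, with 1 added, with the compared varieties alone or with the replicate block. Counts of 0 became 1 with 1 added in CSR11 salt, in IR64 drought and between the salt controls, with the 8 drought arrays normalized apart in IR64 (SAP1 at 1.03), and with 64 added for the unequal drought response. The replicate block changed no other count of SAP probe sets. Requiring a mean of at least 50 took SAP7, with a mean of 19.8 by its brightest probe set, and the dimmer SAP5 probe set, with 40.0, out of the test. Their calls could therefore not be counted in that setting. Without both arrays labelled Vandana drought, a setting added after seeing the data, the counts stayed at 0 in CSR11 salt, 2 in VSR156 salt and 0 in IR64 drought.

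With single arrays left out the counts were 0 to 1 in CSR11, 1 to 2 in VSR156, 0 to 1 in Vandana, 0 to 1 in IR64, 1 to 4 for the unequal salt response, 0 to 1 for the unequal drought response and 0 to 0 for both control comparisons. The highest count for the unequal salt response came without CSR11 salt array A. Leaving out that array also gave the most calls over all probe sets in CSR11 salt. For the unequal responses and the control comparisons, no share over all probe sets is given with single arrays left out. The ranges of these comparisons are therefore not shown to be particular to SAP genes. Over 54 single SAP differences and all settings, 1397 of 1458 values kept their side of the threshold. Of these, 65 changed sign with no call in either setting. A further 39 lost the call, 17 gained it and 5 reversed. Most of the 54 were not called in the main setting and had no call to lose. The losses and reversals fell on the few called there, 2 in VSR156 salt, 1 in Vandana drought and 2 for the unequal salt response. The high share kept is thus no measure of how stable the calls were. The cause of these changes was not tested, except that settings with fewer arrays or fewer probe sets test less.

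Counts over all probe sets moved further. CSR11 salt had 3621 calls in the main setting, 13 as deposited, 390 centred, 1771 normalized apart, 1340 with 64 added, 837 by the unadjusted t-test, 0 after its adjustment or with CSR11 alone, and 2844 to 9057 with single arrays left out, most without CSR11 salt array A. VSR156 salt had 4430, against 13028, 9775, 2651, 1633, 2645 and 0 in the first 6 of these settings. Vandana drought had 6736, against 3076 as deposited, 4057 with 64 added, 3593 with the other control and 0 by the adjusted t-test. IR64 drought had 3979, against 898, 1975 centred, 2208 with 64 added and 0. The share of calls that were up was 37.4%, 42.9%, 44.6% and 43.3% in CSR11, VSR156, Vandana and IR64, but 1.03%, 1.14%, 33.0% and 59.2% with centred arrays. As deposited it was 0%, 0.0998%, 24.7% and 73.8%, with medians of all probe sets at -0.16, -0.53, -0.16 and 0.07. On probe sets as dim as SAP7 and SAP11 the added constant sets the size of a difference.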
